A study of Rattus norvegicus with 8 samples.

Results

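Livers of rats that received GW3965, a synthetic agonist of the liver X receptors (LXRs), were compared with livers of rats that received only its vehicle. The comparison took 4 of the 8 Affymetrix rat genome arrays of the series by their titles, the 2 arrays of GW3965 alone and the 2 arrays of vehicle. The other 4 arrays, 2 of Dex (dexamethasone) and 2 of Dex+GW3965, entered only the estimate of the residual spread. The description ran over 16253 of 31042 probe sets, those whose signal exceeded the array median on at least 2 of the 8 arrays, and these named 9829 genes.

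Both groups were male Sprague-Dawley rats, an outbred stock, and no genetic change was carried by either group. The GW3965 rats received the compound by gavage at 50 mg/kg for 3 days, and the vehicle rats received the same fluid without it, which held a polysorbate detergent and hydroxypropyl methylcellulose in phosphate. On the last day both groups also received saline into the muscle (vehicle in the labels) in place of dexamethasone, and the livers were taken 24 h later, so that injection and handling were shared by the groups. In the labels both arrays of a group share 1 liver number and differ by a letter, a or b, while the methods speak of 2 animals for each condition. The p-values below may therefore measure only the spread between arrays. The samples were whole liver, in which fewer cells of a type and less RNA per cell cannot be told apart.

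LXRs are nuclear receptors that bind oxidized forms of cholesterol and act on DNA together with the retinoid X receptor (RXR). In liver they are known for raising transporters that move sterols out of cells, for raising the fatty acid synthesis program through Srebf1, and in rodents for raising Cyp7a1, which starts the conversion of cholesterol into bile acids. They are also known for restraining inflammatory genes in macrophages.

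The signal of a probe set is given on the log2 scale, and a log2 fold change is the mean of the 2 GW3965 arrays minus the mean of the 2 vehicle arrays (n = 2 arrays per group throughout). A probe set was called where its p from limma, adjusted by Benjamini-Hochberg over all 16253, was under 0.05. A gene was read on its brightest probe set with 1 symbol. A group mean under 5.49, the mean of the array medians, counted as not above background, and where 1 group lay there its change is bounded by that level and written with "at least". The liver label was borne out by the hepatocyte markers. Alb read 14.94 and 14.88 in vehicle and 14.93 and 14.92 after GW3965, and the summed linear signal of 11 hepatocyte markers was 138932 to 143725 in vehicle and 136411 to 138718 after GW3965.

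The 2 vehicle arrays differed by a median of 0.089 on the log2 scale over the tested probe sets and the 2 GW3965 arrays by 0.0698, while the group means differed by a median of 0.113. GW3965 changed 3325 of 16253 probe sets (20.5%), of which 963 (5.93%) were higher and 2362 (14.5%) lower. With quantile normalization the split was 1208 higher and 1505 lower, and with arrays centred on the tested probe sets it was 1131 and 1874. The changes were mostly small, with a median absolute log2 fold change of 0.311 among those called. Only 128 called probe sets (0.788% of those tested) changed at least 2-fold, 71 higher and 57 lower, and 12 and 7 changed at least 4-fold. The excess of falls lay among bright probe sets. With the probe sets divided into 4 equal bins by mean signal, 349 were higher and 1254 lower in the brightest bin, and 155 and 198 in the dimmest. The vehicle and GW3965 arrays did not overlap for 9373 probe sets (57.7%), so absence of overlap by itself was common. Read by gene, 2145 of 9829 (21.8%) were called, 580 higher (5.9%) and 1565 lower (15.9%), with a median log2 fold change of -0.03 over all genes tested. Each count of a list below is to be read against these shares, and against 30.1% lower for genes in the brightest bin. The number of calls fell when either vehicle array or either GW3965 array was left out, and it fell further without a GW3965 array. Each such fit has only 1 array in a group, and the cause of the difference was not tested.

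**Figure D1:**
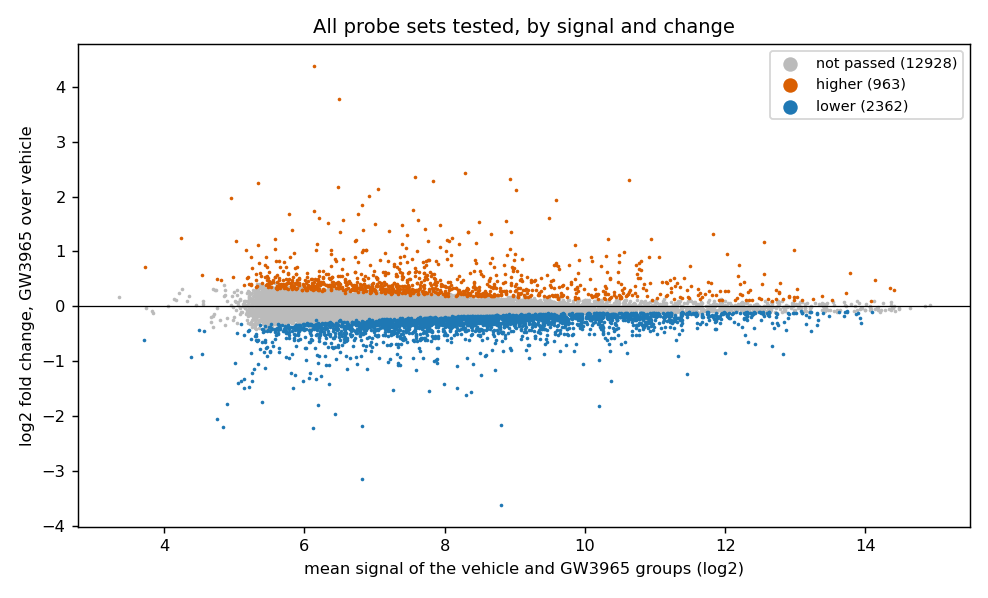
Mean log2 signal of the vehicle and GW3965 groups (horizontal axis) against the log2 fold change of GW3965 over vehicle (vertical axis) for the 16253 probe sets tested, with 963 called higher in orange, 2362 called lower in blue and the rest in grey. Most called points lie within 1 log2 unit of zero, and blue points outnumber orange ones at high signal.

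The largest measured differences on the brightest probe set of a gene belonged to genes of different kinds. A dimmer probe set of Fos, described with the immediate early genes, rose by at least 2.83 and is outside this ranking. Of the 15 genes ranked first in each direction, 4 that rose and 8 that fell were not above background in 1 group, so their changes are bounds and their places in the order are not settled. Falls measured above background in both groups, such as those of Lyz2 (-1.37), Cyp39a1 (-1.17) and Acmsd (-1.15), can exceed the smaller of these bounds. RT1-N2, a class I gene of the major histocompatibility complex (MHC), read 4.79 and 4.42 in vehicle and 8.38 and 8.37 after GW3965. The vehicle arrays were not above background, and the rise was at least 2.88 (adjusted p = 2.3e-14 from limma). RT1-CE12, another MHC class I gene, read 9.69 and 9.27 in vehicle and 11.75 and 11.80 after GW3965, a rise of 2.30 (SE 0.08, adjusted p = 1.8e-12 from limma). MHC genes of the RT1 family are close in sequence to each other, so their probes may share signal, and their levels are uncertain for that reason. Onecut1, a transcription factor of hepatocytes and bile duct cells, read 7.73 and 7.82 in vehicle and 10.11 and 10.06 after GW3965 (log2 fold change 2.31, SE 0.07, adjusted p = 2.4e-13 from limma). Its second probe set changed by 2.29. Slc25a30, a carrier of the inner mitochondrial membrane, read 8.03 and 7.89 against 10.08 and 10.08, and rose by 2.12 on this probe set and 2.35 on the other. Dock11, an activator of the small GTPase Cdc42, rose from 5.33 and 5.46 to 7.53 and 7.62, at least 2.08. Only genes whose vehicle and GW3965 arrays did not overlap could enter this ranking. As the filter on signal asked for only 2 arrays, a probe set could be tested through the group where it was high.

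Adh4, an alcohol dehydrogenase, rose by 1.57, Ncald, a neuronal calcium sensor protein, by 1.50, and Serpina7, which carries thyroid hormone in blood, by 1.48. Among the falls, Cyp7a1 came first and is described with the bile acid genes. Pbsn, a lipocalin known from the prostate, read 8.38 and 8.39 in vehicle and 5.22 and 5.27 after GW3965, a fall of at least 2.89 to a level not above background. Dnpep, an aminopeptidase, read 9.82 and 9.95 in vehicle and 7.74 and 7.71 after GW3965 (log2 fold change -2.16, SE 0.05, adjusted p = 2.3e-14 from limma). Mlc1, a membrane protein known from astrocytes, stood at -1.56, Itga1, the collagen-binding integrin alpha 1, at -1.55, and Tspyl4 at -1.53. Ighvl1, an immunoglobulin variable region gene, stood at -1.41. Sybu, which links cargo to kinesin, fell by at least 0.77, Reg3b, a secreted lectin, by at least 0.45, and Slc1a3, a glutamate transporter, by at least 0.26, each to a level not above background.

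**Figure D2:**
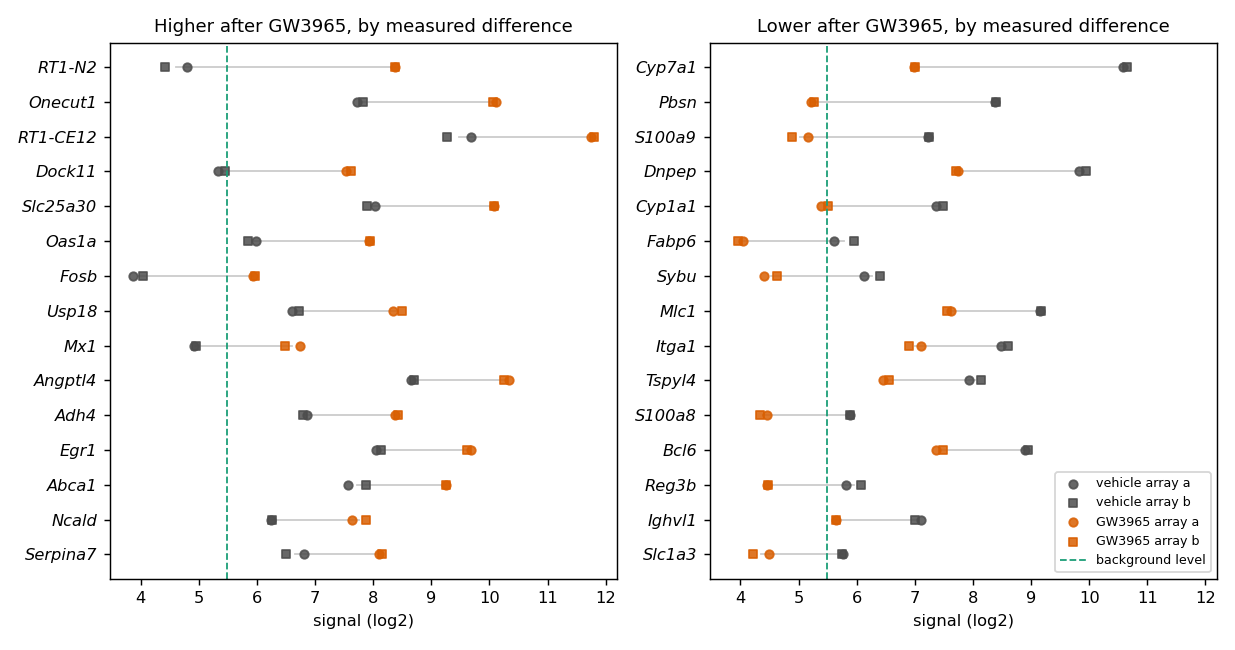
Log2 signal (horizontal axis) of each of the 2 vehicle arrays (grey) and 2 GW3965 arrays (orange) for the 15 called genes with the largest measured differences upward (left) and the 15 downward (right), circles for array a and squares for array b, with the background level of 5.49 dashed. Each gene was read on its brightest probe set, and only genes whose vehicle and GW3965 arrays did not overlap were taken. On the left 4 genes and on the right 8 have the mean of 1 group under the dashed line, so that their differences are bounds.

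The LXR pathway itself gave a divided picture. None of 11 tested receptor and cofactor genes passed the test (median log2 fold change -0.00). Nr1h3, which encodes LXR alpha, read 9.53 and 9.49 in vehicle and 9.43 and 9.45 after GW3965 (log2 fold change -0.07, adjusted p = 0.35 from limma), and Nr1h2, LXR beta, stood at 0.15 (adjusted p = 0.16 from limma). Among the receptors' partners and coregulators the differences ran from -0.21 (Med1) to 0.22 (Ncoa3), with Rxra at 0.06.

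Of 13 tested LXR targets of sterol and phospholipid transport, 4 rose, 5 fell and 4 did not pass (median -0.09). Abca1, which exports cholesterol and phospholipid to apolipoprotein A-I, read 7.57 and 7.87 in vehicle and 9.25 and 9.25 after GW3965 on its brightest probe set (log2 fold change 1.53, SE 0.07, adjusted p = 8.7e-11 from limma). Its other 3 probe sets stood at 0.97, -0.47 and -0.47, all called, so that the direction for Abca1 depended on the probe set. Cd5l, a secreted macrophage protein, rose from 9.32 and 9.11 to 9.98 and 9.95, by 0.75. Smpdl3a, a lipid phosphodiesterase, rose by 0.33, and Pltp, the phospholipid transfer protein, by 0.32, though Pltp did not pass without any 1 of the 4 arrays (adjusted p from 0.095 to 0.18 from limma).

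Abcg5 and Abcg8, the paired transporters that together secrete sterols into bile, were both lower. Abcg8 read 6.77 and 6.87 in vehicle and 5.33 and 5.68 after GW3965, a change of -1.32 (SE 0.16, adjusted p = 1.4e-05 from limma). Its GW3965 mean of 5.50 barely exceeded the background level of 5.49, and GW3965 array a lay under it, so the size of this fall is uncertain. Abcg5 read 8.81 and 9.04 in vehicle and 7.73 and 8.03 after GW3965, a change of -1.05 (SE 0.20, adjusted p = 0.0011 from limma). Lpl, the lipase that frees fatty acids from lipoproteins, stood at -1.06, and Lpcat3, which remodels phospholipids, at -0.22. Abcg1, another sterol exporter, stood at -0.41 and lost its call without vehicle array b (adjusted p = 0.07) or GW3965 array a (adjusted p = 0.052). On its other probe set Abcg1 stood at -0.06 and was not called. Mylip, which marks the LDL receptor for breakdown, stood at -0.24, Abca2 at -0.09, Scarb1 at 0.08 and Apoe at 0.01, and none of these 4 genes passed.

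The bile acid pathway held the largest measured fall of the comparison. Cyp7a1, which sets the rate of bile acid synthesis, read 10.58 and 10.65 in vehicle and 6.99 and 7.00 after GW3965, a 12.3-fold difference (log2 fold change -3.62, SE 0.05, adjusted p = 1.9e-17 from limma). The vehicle arrays were both far above the GW3965 arrays, which remained above background. Of 15 tested genes of bile acid synthesis, 6 fell, 3 rose and 6 did not pass (median -0.06), so the size of the Cyp7a1 change was not shared by the list. Cyp39a1, which hydroxylates an oxysterol, read 9.46 and 9.14 against 8.11 and 8.14 and stood at -1.17. Acox2, the oxidase that shortens the side chain, read 11.77 and 11.78 against 10.88 and 10.88 and stood at -0.90. Smaller falls were those of Akr1c14, a hydroxysteroid dehydrogenase, at -0.29, Cyp8b1, which makes cholic acid, at -0.25, and Baat, which conjugates bile acids, at -0.15. The rises were those of Slc27a2, an acyl-CoA synthetase, at 0.42, Amacr, a racemase of the side chain, at 0.40, and Hsd17b4, a peroxisomal enzyme, at 0.13. Baat did not pass without vehicle array a or either GW3965 array (adjusted p from 0.078 to 0.095), nor Hsd17b4 without vehicle array b or either GW3965 array (adjusted p from 0.096 to 0.14). Cyp27a1 at -0.09, Hsd3b7 and Scp2 at -0.06, Akr1d1 at 0.03, Cyp46a1 at 0.08 and Slc27a5 at 0.09 did not pass.

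Among 12 tested genes that control this pathway, 2 rose and 5 fell. Jun, a target of stress kinases, read 8.01 and 7.99 in vehicle and 9.36 and 9.26 after GW3965, a rise of 1.31, and its other probe sets rose by 1.18 and 1.40. Nr1h4, which encodes the bile acid receptor FXR, rose by 0.21. The repressor Nr0b2, known as SHP, stood at -0.43, and the activators of Cyp7a1 Nr5a2 and Hnf4a at -0.34 and -0.32, all called. Of 12 bile acid and organic anion transporters, 3 fell and 1 rose, with the export pump Abcb11 at -0.14, the lipid flippase Atp8b1 at -0.47 and the uptake carrier Slco1a4 at 0.52. With quantile normalization 4 of these transporters were higher and 2 lower, and 2 were higher without vehicle array a. Fabp6, which carries bile acids inside cells of the ileum, read 5.61 and 5.96 in vehicle and 4.05 and 3.96 after GW3965, a fall of at least 0.29 to a level not above background.

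Most tested genes of fatty acid synthesis were lower in these livers. Of 21 tested, 13 fell, Fads2 rose and 7 did not pass (median -0.24, against -0.03 over all genes tested and 15.9% of all genes lower). Bright genes fell more often in general, 30.1% of the 3059 in the brightest of the 4 signal bins, and 11 of the 18 list members in that bin fell (61.1%). Srebf1, which encodes the transcription factor SREBP-1 and is a known LXR target, read 11.22 and 11.34 in vehicle and 10.75 and 10.79 after GW3965 (log2 fold change -0.51, SE 0.04, adjusted p = 1.4e-07 from limma), and its other probe set stood at -0.68. Scd, the stearoyl-CoA desaturase, averaged 13.03 in vehicle against 12.31 after GW3965, where its arrays read 12.34 and 12.29, and stood at -0.72, the lowest value of the list. The related Scd2 stood at -0.65 and the elongase Elovl6 at -0.62. For the enzymes that build the chain, the values were -0.53 for Acaca, -0.38 for Fasn and -0.23 for Acly, and for Acss2, which activates acetate, -0.58.

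Thrsp, a lipogenic protein, stood at -0.40, the glycolytic enzyme Pklr at -0.39, Acsl5 at -0.35, Me1 at -0.24 and Insig2, which holds SREBPs in the endoplasmic reticulum, at -0.18. Without GW3965 array b, Me1 did not pass (adjusted p = 0.13). Fads2, a desaturase of polyunsaturated fatty acids, rose from 10.58 and 10.61 to 10.85 and 10.83, by 0.24. Mlxipl, which encodes the carbohydrate-responsive factor ChREBP, stood at -0.09, its partner Mlx at -0.02 (and -0.23, called, on another probe set), Elovl2 at -0.13, Acsl3 at -0.03, Elovl5 at 0.05, Mid1ip1 at 0.10 and Fads1 at 0.11, and these did not pass. In triglyceride synthesis and storage 8 of 21 fell and 1 rose, and 5 fell without GW3965 array b. Gpam, the first acyltransferase, stood at -0.43, Agpat2 at -0.41, Dgat2, the last one, at -0.37, and Cidea, a lipid droplet protein, was higher at 0.85. Plin2, which coats lipid droplets, stood at 0.04 and did not pass.

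Cholesterol synthesis split between its members. Of 17 tested, 8 fell, 2 rose and 7 did not pass (median -0.09). Lss, which closes the sterol ring, read 7.78 and 7.97 in vehicle and 9.02 and 9.04 after GW3965 and rose by 1.16 on this probe set and 0.82 on the other. Tm7sf2, a sterol reductase, went the other way, from 10.44 and 10.57 to 9.44 and 9.44, a change of -1.06. Ebp stood at -0.45, Cyp51 at -0.31, Dhcr7 at -0.29, Acat2 at -0.23, Pmvk at -0.22 and Fdft1 at -0.18, and Mvd rose by 0.28. Without GW3965 array a, Mvd, Pmvk and Fdft1 did not pass (adjusted p = 0.11, 0.073 and 0.052), and the same held for Mvd without vehicle array a (0.091) or GW3965 array b (0.053) and for Pmvk without vehicle array b (0.071). With quantile normalization Pmvk and Fdft1 did not pass. Sc5d stood at -0.23 on its brightest probe set, -0.53 on the next and 0.26 on a further one, all called. Sqle at 0.01, Idi1 and Msmo1 at 0.02, Nsdhl at 0.01, Mvk at -0.03, Hsd17b7 at -0.04 and Fdps at -0.09 did not pass, though other probe sets of Nsdhl (-0.16) and Hsd17b7 (-0.24) were called lower, and neither did Srebf2 at 0.02, which encodes the factor SREBP-2.

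**Figure D3:**
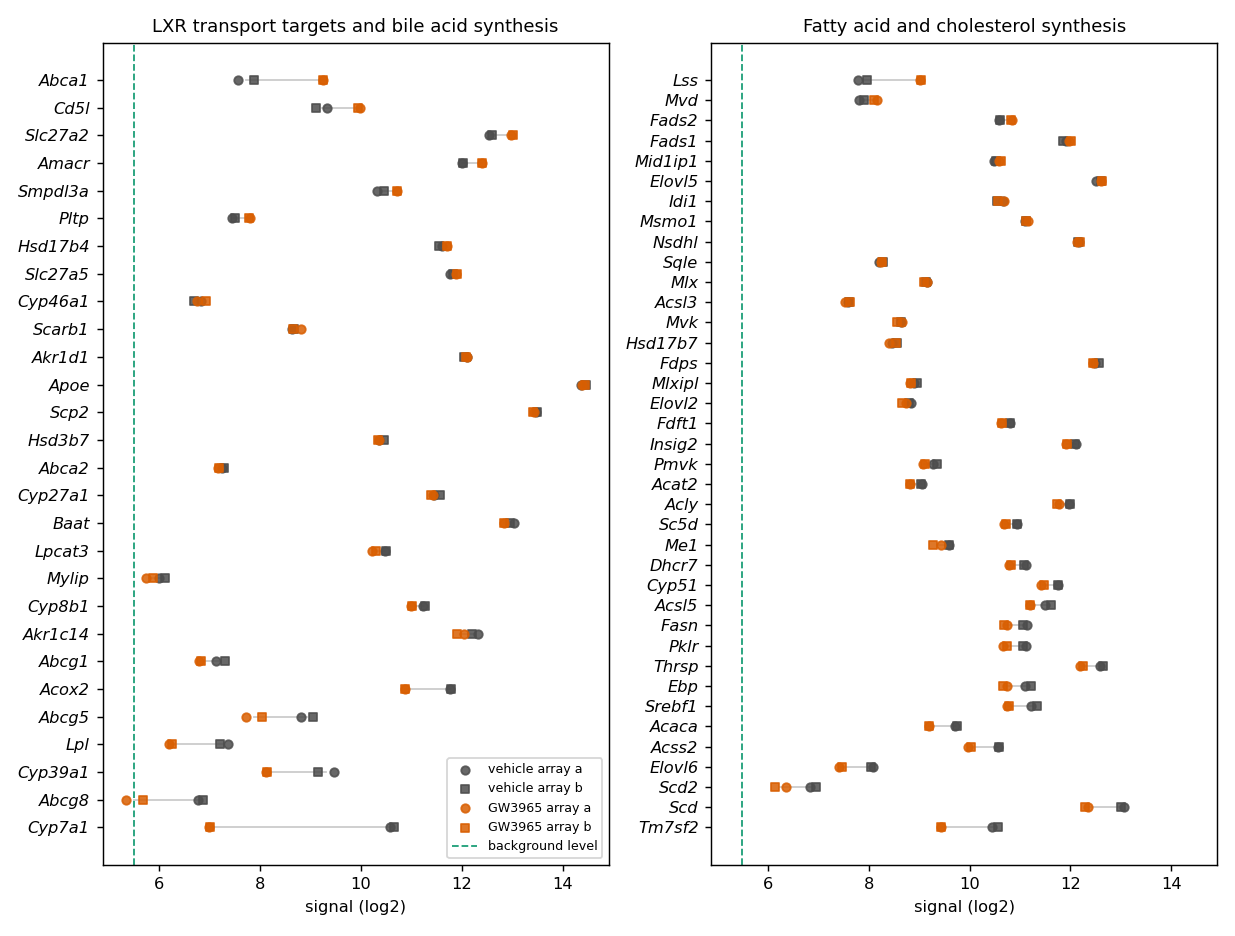
Log2 signal (horizontal axis) of each vehicle array (grey) and GW3965 array (orange) for the LXR transport targets and genes of bile acid synthesis (left) and for genes of fatty acid and cholesterol synthesis (right), sorted by log2 fold change, circles for array a and squares for array b. Cyp7a1 stands apart at the foot of the left panel, Abca1 and Lss lead the panels, and most genes of the right panel have orange points left of grey ones.

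Nearly as many genes of fatty acid breakdown rose as did not pass, and none fell. Of 20 tested genes of fatty acid oxidation, 9 rose and 11 did not pass (median 0.10, against 5.9% of all genes higher), and 2 fell without vehicle array b. Eci1, which moves double bonds in mitochondria, read 10.23 and 10.42 in vehicle and 11.55 and 11.56 after GW3965, a rise of 1.23. Decr1, a mitochondrial reductase, rose by 0.51, Crat, a carnitine acyltransferase, by 0.40, both subunits of the trifunctional protein, Hadha and Hadhb, by 0.37 and 0.36, and Cpt1a, the gate of fatty acids into mitochondria, by 0.35. Carriers of electrons from these enzymes, Etfa, Etfb and Etfdh, stood at -0.06, -0.06 and -0.05 and did not pass.

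Of 27 tested targets of the fatty acid receptor PPAR alpha and peroxisomal genes, 13 rose, 2 fell and 12 did not pass (median 0.15). Angptl4, a secreted inhibitor of lipoprotein lipase, read 8.66 and 8.71 in vehicle and 10.33 and 10.25 after GW3965 (log2 fold change 1.60, SE 0.05, adjusted p = 2.9e-13 from limma). Pxmp4, a peroxisomal membrane protein, rose by 1.02, Vnn1, a pantetheinase, by 0.94, and Cyp4a1, a fatty acid hydroxylase, by 0.90. On its other probe set Pxmp4 rose by 1.85. Crot and Ehhadh, peroxisomal enzymes, rose by 0.67 and 0.66. The falls were Cyp4a8, another hydroxylase, at -0.83, and Cd36, a fatty acid receptor, at -0.42. Ppara itself stood at -0.01, Pdk4 at 0.05 and Fgf21 at 0.13, and none of these passed. Among 21 apolipoproteins and lipoprotein genes 9 fell and 1 rose, with Apoa4 at -0.44 and Angptl8 at 0.19. All 9 were among the 18 in the brightest signal bin (50%), where 30.1% of all genes fell. The 9 became 5 with quantile normalization and 4 without GW3965 array b.

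Interferon-stimulated genes were higher in large part. Interferons are cytokines released on viral infection whose receptors activate factors of the STAT and IRF families, and these bind the interferon-stimulated response element (ISRE) in the promoters of antiviral genes. Over 5 lists of interferon genes, 45 of 75 tested were higher, 3 were lower and 27 did not pass. Among all genes tested, 5.9% were higher and 15.9% lower. Of the factors that carry the signal, 5 of 17 rose and 2 fell, and the 5 became 3 without vehicle array a, 2 without GW3965 array a and 3 without GW3965 array b. Irf7, the master factor of type I interferon, read 7.61 and 7.70 in vehicle and 9.02 and 9.01 after GW3965, a rise of 1.36, and Irf9, which binds DNA with STAT proteins, rose by 0.63. The receptor chains Ifnar1 and Ifnar2 stood at -0.06 and -0.14 and did not pass, and the kinase Jak1 was lower at -0.20. With quantile normalization 5 of the 17 factors were higher and 0 lower, so the fall of Jak1 was no longer called.

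Among 10 sensors of viral nucleic acid and OAS enzymes, 7 were called higher and none lower, and 4 were higher without vehicle array a or either GW3965 array. Oas1a, which makes the second messenger that activates RNase L, read 5.99 and 5.85 in vehicle and 7.93 and 7.94 after GW3965, a rise of 2.01 (SE 0.06, adjusted p = 2.2e-13 from limma). Eif2ak2, the kinase PKR, rose by 0.44 and Ifih1, the RNA sensor MDA5, by 0.35. Ddx60, a helicase, is counted with the 7, but its values of 3.55 and 3.69 in vehicle and 5.04 and 4.68 after GW3965 were below background in both groups, and no fold is given for it.

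All 6 members of the ISG15 system, which attaches the small protein ISG15 to other proteins, were tested, and 4 rose. Isg15 read 7.43 and 7.79 in vehicle and 8.41 and 8.53 after GW3965 and rose by 0.86. Usp18, which removes ISG15 again, read 6.61 and 6.73 in vehicle and 8.34 and 8.50 after GW3965 and rose by 1.75 (SE 0.06, adjusted p = 1.1e-12 from limma). The conjugating enzyme Ube2l6 rose by 0.29, and the ligase Herc6 rose by at least 0.36 but not without GW3965 array a (adjusted p = 0.15). The ligase Trim25 stood at -0.01 and did not pass. Uba7, the activating enzyme, stood at 0.19 on its brightest probe set and at 0.11 on its dimmest, and neither was called. On the remaining probe set Uba7 read 7.05 and 6.95 against 7.28 and 7.29 and was called higher, at 0.29 (adjusted p = 0.0099 from limma).

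Of 35 antiviral effectors, 24 rose, 1 fell and 10 did not pass (median 0.35). Mx1, a GTPase that blocks viral replication, read 4.92 and 4.96 in vehicle and 6.74 and 6.49 after GW3965, a rise of at least 1.12, and its relative Mx2 rose by at least 0.60 on its brightest probe set. On its other probe set Mx2 read 5.65 and 5.87 in vehicle and 7.39 and 7.30 after GW3965, above background in both groups, and rose by 1.58 (adjusted p = 3.7e-10 from limma). Ifit3, which takes part in the binding of viral RNA, rose from 5.07 and 4.86 to 6.14 and 6.26, by at least 0.71. The tetherin gene Bst2 read 10.37 and 10.38 against 11.16 and 11.17 and rose by 0.79, and the secreted Lgals3bp rose by 0.83. Rnf213, a large ubiquitin ligase, was the 1 effector that fell, at -0.39. Of 7 GTPases and chemokines known from interferon gamma, 5 rose, with Gbp2 at 1.03, the chemokine Cxcl9 at 0.84 and Cxcl10 at 0.75 or more. With quantile normalization all 7 were higher.

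**Figure D4:**
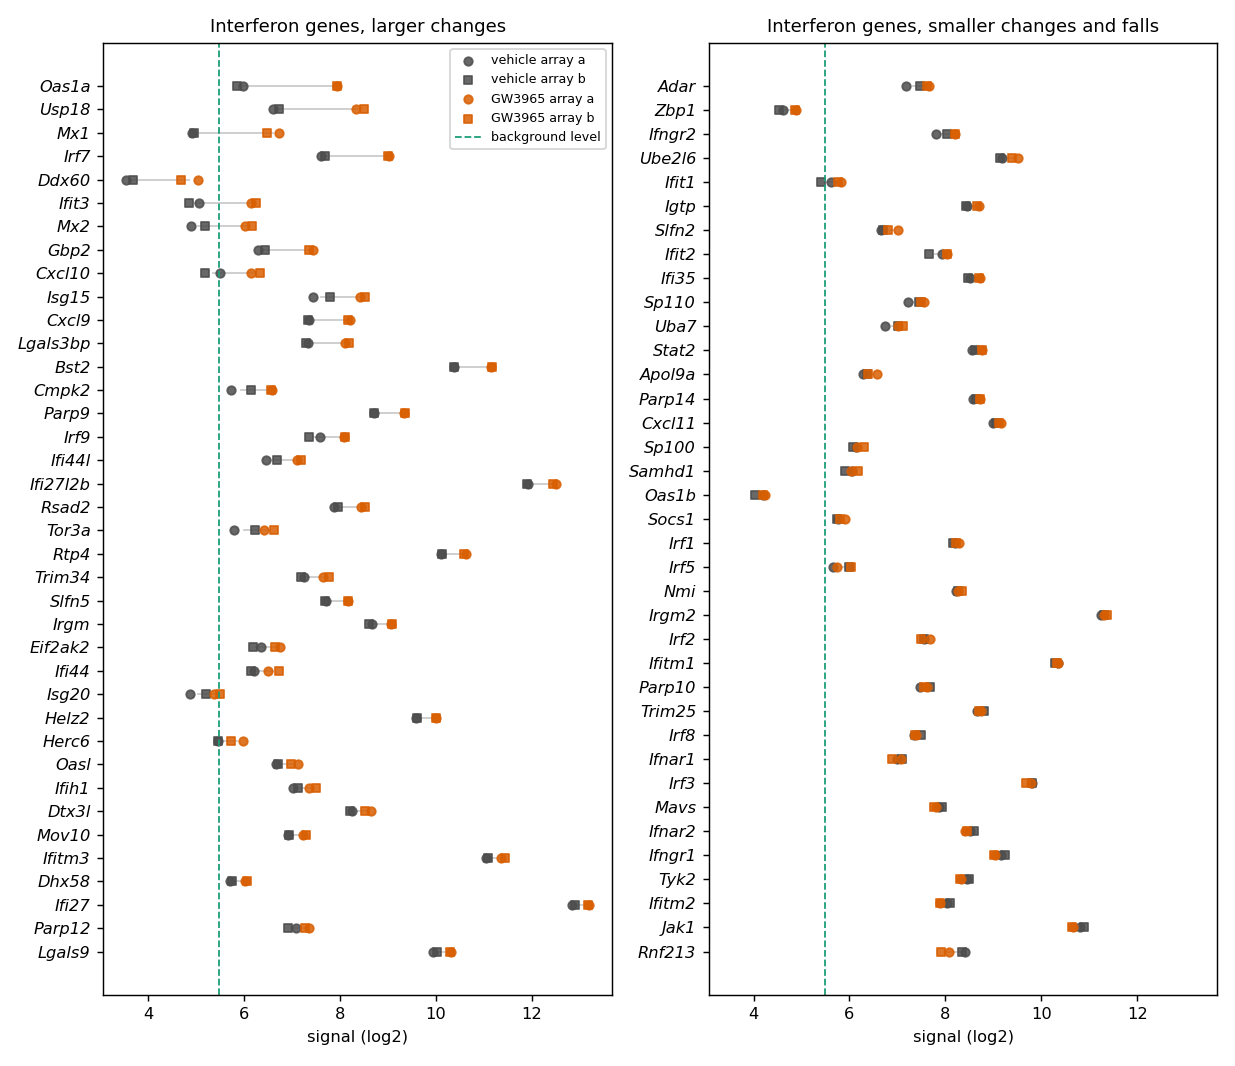
Log2 signal (horizontal axis) of each vehicle array (grey) and GW3965 array (orange) for the 75 interferon genes tested, sorted by log2 fold change from the top of the left panel to the foot of the right one, with the background level of 5.49 dashed. Orange points lie right of grey ones down the left panel, and Rnf213 at the foot of the right panel has them on the left.

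Promoter windows from RefSeq (assembly GRCr8, from 250 bases before to 50 after the start) were found for 60 of the 75 genes. The letters GAAANNGAAA, the core of the ISRE, searched on both strands with overlapping matches kept, were in 31 of the 60 (51.7%), against 3.78% of all 27457 promoters in the table and 3.05% of the 8235 matched genes tested. They were in 23 of 37 genes that rose (62.2%) and in 8 of 21 that did not pass (38.1%). These shares describe letters in a window and not binding. The 3 windows below belong to the interferon genes that hold the core and had the largest measured differences, leaving out Ddx60, which was below background in both groups. Ifit3 was not above background in vehicle, so its rise is only bounded, at 0.71 or more, and Gbp2 and Bst2, which also hold the core, rose by 1.03 and 0.79 with both groups above background. They are shown because these genes carry the interferon result, with the core in capitals and the strand of the gene read 5′ to 3′.
Oas1a (chr12:41330216-41330515, plus strand): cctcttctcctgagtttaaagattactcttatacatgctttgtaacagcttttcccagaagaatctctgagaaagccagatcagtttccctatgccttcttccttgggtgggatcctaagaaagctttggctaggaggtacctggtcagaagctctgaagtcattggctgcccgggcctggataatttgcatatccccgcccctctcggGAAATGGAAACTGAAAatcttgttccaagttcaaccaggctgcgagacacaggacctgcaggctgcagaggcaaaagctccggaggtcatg
Irf7 (chr1:205799974-205800273, minus strand): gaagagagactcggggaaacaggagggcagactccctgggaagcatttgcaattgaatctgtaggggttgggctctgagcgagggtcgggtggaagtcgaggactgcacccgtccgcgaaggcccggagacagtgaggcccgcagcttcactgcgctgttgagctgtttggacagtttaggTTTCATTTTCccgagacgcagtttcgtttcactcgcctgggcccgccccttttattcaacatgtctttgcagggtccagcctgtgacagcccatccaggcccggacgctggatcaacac
Ifit3 (chr1:241527076-241527375, plus strand): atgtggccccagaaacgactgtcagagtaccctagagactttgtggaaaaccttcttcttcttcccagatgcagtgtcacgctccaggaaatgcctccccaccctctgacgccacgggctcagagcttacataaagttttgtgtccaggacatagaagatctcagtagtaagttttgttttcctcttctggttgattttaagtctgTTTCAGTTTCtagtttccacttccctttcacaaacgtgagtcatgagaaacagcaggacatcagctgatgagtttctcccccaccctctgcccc
In Oas1a a pair of overlapping matches began 41 and 35 bases before the start, in Irf7 the match began 69 bases before it and in Ifit3 44 bases before it, both on the opposite strand.

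Of the other motifs searched, 3 were rare or absent in the windows of their lists, and the CArG box was not. No match to a DR4 repeat, the LXR element, was found in the windows of 10 LXR transport targets, 13 bile acid genes or 18 fatty acid synthesis genes, against 0.0874% of all promoters. The SREBP element TCACNCCAC was in none of the windows of 14 genes of cholesterol synthesis, against 1.13% of all promoters. At such low rates over all promoters no match was likely in so few windows, so the absence of these 2 motifs is not informative. Cyp7a1 was not among the bile acid genes searched, as no window was found for it. A DR1 repeat, the PPAR element, was in 1 of 40 windows of oxidation and PPAR alpha genes, that of Acot8, against 0.244% of all promoters. The CArG box bound by SRF was in 5 of 18 windows of immediate early genes (27.8%), those of Dusp5, Egr1, Klf6, Srf and Zfp36, against 1.64% of all promoters.

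Genes of MHC class I and peptide loading rose in part. Of 21 tested, 9 rose and none fell (median 0.11), and 6 rose without vehicle array a or GW3965 array b. Beside RT1-N2, the class I genes RT1-T24-4, RT1-CE10 and RT1-S3 rose by 1.36, 0.77 and 0.75, and RT1-CE16 at -0.09 and RT1-CE5 at 0.04 did not pass. Psmb9, a subunit of the immunoproteasome, read 8.54 and 8.65 against 9.35 and 9.27 and rose by 0.71. Tap1, which pumps peptides, rose by 0.49, but not without vehicle array a (adjusted p = 0.056), and B2m, the shared light chain, stood at 0.05 on its brightest probe set and did not pass. On its other probe set B2m read 11.19 and 11.18 against 11.54 and 11.53 and rose by 0.35 (adjusted p = 1.3e-06 from limma). The core of the ISRE was in 9 of 18 windows of this list (50%).

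Of 8 tested MHC class II genes, 3 fell and Ctss, a protease that trims the invariant chain, rose by 0.45. RT1-Db1 stood at -0.57, the invariant chain Cd74 at -0.49 and RT1-Da at -0.33. Probe sets of the same class II gene disagreed here. RT1-Ba stood at 0.11, -0.02 and -0.10 on 3 probe sets, none called, and read 9.19 and 9.05 against 7.51 and 7.50 on the other (log2 fold change -1.62, adjusted p = 5.1e-11 from limma). RT1-Bb stood at -0.21, not called, on its brightest probe set and rose by at least 1.53 on the other (adjusted p = 6e-09 from limma).

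Inflammatory genes outside the interferon lists had no common direction. Of 34 cytokines, chemokines and innate receptors, 8 rose, 6 fell and 20 did not pass. Cd14, the coreceptor for bacterial lipopolysaccharide, read 9.33 and 9.27 in vehicle and 10.37 and 10.44 after GW3965 and rose by 1.11. Il1b rose by 0.52, Ccl3 by 0.50 and Ccl4 by 0.42, while Cxcl1, a chemokine for neutrophils, stood at -0.90, the receptor Il6r at -0.45 and Cxcl13 at -0.39. Of 24 acute phase proteins, 18 did not pass, among them Crp at -0.07, Hp at -0.04 and C3 at -0.06. Hamp, the iron hormone hepcidin, read 12.34 and 12.52 against 11.59 and 11.56 and stood at -0.85, and Hjv, a coreceptor that raises it, stood at -0.69. The 5 acute phase genes that fell became 3 without vehicle array b or GW3965 array a and 2 without GW3965 array b.

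Markers of other cells moved in the same livers. The tested neutrophil markers were S100a9, which read 7.22 and 7.25 in vehicle and 5.16 and 4.88 after GW3965 and fell by at least 1.74, and S100a8, which fell by at least 0.39. Their summed linear signal was 208 and 212 in vehicle and 58 and 49 after GW3965. Of 13 Kupffer cell markers 6 rose and 1 fell, with Clec4f at 0.51, the complement chains C1qa, C1qb and C1qc at 0.27, 0.33 and 0.34, and lysozyme Lyz2, from 11.07 and 11.05 to 9.67 and 9.70, at -1.37. Cd68 at 0.18, Adgre1 at 0.05 and Csf1r at 0.08 did not pass, and the summed signal was 8380 and 8404 in vehicle and 9295 and 9356 after GW3965. Cd5l and Cd14 are also among these Kupffer cell markers.

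Of 4 T and NK cell markers 1 was called, Gzmb, below background in both groups, and their summed signal was 294 and 300 in vehicle and 291 and 286 after GW3965. Of 3 B and plasma cell markers Cd79b at -0.52 and Jchain at -0.32 fell, with sums of 457 and 486 against 368 and 392. Of 14 stellate cell and fibroblast markers 8 fell and 1 rose, with the matrix genes Lum, Dcn and Col1a1 at -0.98, -0.93 and -0.63 and Lox, which crosslinks collagen, at 1.04. Their sums were 7262 and 7325 against 6253 and 6359. Of 5 erythrocyte markers the globins Hbb and Hba-a3 and the heme enzyme Alas2 rose by 0.61, 0.96 and 0.94, while Ahsp and Slc4a1 stood at -1.04 and -0.96, with sums of 14747 and 15473 against 23829 and 24343. The part of these cells in the immune and matrix results was not tested. Of the other lists, the 3 dendritic cell markers had none called and sums of 185 and 183 against 180 and 195, and 3 of 11 sinusoidal endothelial markers rose and 2 fell, with the scavenger receptors Stab2 and Stab1 at -0.47 and -0.35.

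Of 5 cholangiocyte markers Krt19 at -0.50 and Epcam at -0.27 fell and Spp1 rose by 0.40, with sums of 814 and 809 against 769 and 783. Neither adipocyte marker tested was called. Myh1, the 1 muscle marker tested, stood at 0.06 on its brightest probe set, not called, and at -0.21 and -0.37, both called, on further ones, and of 3 exocrine pancreas markers Cela1 fell, at -0.16.

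Immediate early genes, which cells switch on within minutes of a signal, moved in both directions, more of them up. Of 26 tested, 13 rose, 5 fell and 8 did not pass (median 0.38). Egr1, a zinc finger factor, read 8.05 and 8.14 in vehicle and 9.69 and 9.61 after GW3965, a rise of 1.56 (SE 0.06, adjusted p = 8.7e-12 from limma). Fosb, an AP-1 subunit, rose from 3.87 and 4.04 to 5.93 and 5.96, by at least 0.45 above background. Fos read 5.60 and 5.80 against 5.81 and 5.76 on its brightest probe set and did not pass (log2 fold change 0.08). On its other probe set Fos read 3.75 and 4.13 against 8.36 and 8.28, a rise of at least 2.83 (adjusted p = 2.4e-13 from limma), so its probe sets gave different answers. That probe set and the one of Fosb averaged 5.06 and 4.46 over the 8 arrays, under background. Both met the filter on the 2 arrays of GW3965, the group where they were high, and their p-values do not account for that selection.

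Klf10, a target of TGF-beta, rose by 0.91, the phosphatases Dusp5 and Dusp1 by 0.68 and 0.48, and Zfp36, which destabilizes cytokine mRNAs, by 0.67. Among the falls, the growth arrest gene Gadd45a read 9.01 and 9.14 against 8.34 and 8.22 and stood at -0.79, and Myc, a transcription factor of growth, stood at -0.59. Of 18 heat shock genes 4 rose and 5 fell, with the inducible chaperone Hspa1a at 1.13 and its partner Bag3 at -0.34. The 5 became 2 with quantile normalization, 3 without vehicle array a or GW3965 array b and 2 without GW3965 array a. The unfolded protein list had 4 higher and 5 lower of 24, with Xbp1 at 0.43 and the chaperone Hspa5 at -0.01, which did not pass. Without vehicle array a, vehicle array b or GW3965 array b, 2 of that list were higher, and 2 were lower without GW3965 array b and 3 with quantile normalization.

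Genes that break down amino acids or make urea were lower or did not pass. Of 44 tested, 28 fell and none rose (median -0.18), against 15.9% of all genes lower. Of these genes 42 lay in the brightest signal bin, where 27 fell (64.3%), against 30.1% of all genes in that bin. Acmsd, which steers tryptophan carbon away from NAD, read 7.51 and 7.44 in vehicle and 6.44 and 6.20 after GW3965, a change of -1.15 (SE 0.08, adjusted p = 5.6e-09 from limma). Hal, which starts histidine breakdown, stood at -0.58, Tat, for tyrosine, at -0.52, the glutaminase Gls2 at -0.47, Ftcd, of histidine and folate breakdown, at -0.42 and the aminotransferase Gpt at -0.41. The urea cycle enzymes Ass1 and Asl stood at -0.25 and -0.30, while Cps1 and Otc, at -0.03 each, did not pass, and another Cps1 probe set was called lower at -0.13. With no intensity trend in the fit, 17 of the 44 fell.

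Of 17 genes known to be highest near the portal vein, 12 fell and Pck1 rose by 0.26 (median -0.23), and of 16 in the brightest signal bin 11 fell (68.8%). Aldh1b1, a mitochondrial aldehyde dehydrogenase, read 8.72 and 8.71 against 7.63 and 7.63 and stood at -1.09. This list shares Hal, Gls2, Asl, Ass1, Sds, Agxt, Arg1, Cps1 and Uroc1 with the amino acid list and is not a separate measurement for them. Of 14 genes of the central vein, 2 rose and 1 fell, and Glul, which marks the cells around it, stood at -0.27.

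In glucose output and glycogen, 8 of 21 genes fell and 3 rose. Ppp1r3b, which brings a phosphatase to glycogen, stood at -0.53, Foxo1 at -0.37 and the gluconeogenic Fbp1 at -0.34, while Pck1, the other committed enzyme of gluconeogenesis, rose from 12.67 and 12.61 to 12.89 and 12.92. The 8 became 4 with quantile normalization, 5 without vehicle array b and 4 without GW3965 array b. Of 22 genes of glucose and fructose use 8 fell and 2 rose, with Slc2a5 at -0.35, Khk at -0.26 and Slc2a1 at 0.43, and 4 fell without GW3965 array a and 5 with quantile normalization. In the brightest signal bin 43.8% of the glucose output genes and 44.4% of the glucose use genes fell, against 30.1% of all genes there. In the insulin list 16 of 19 did not pass, and Irs2, an insulin receptor substrate, stood at -0.54.

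Of 21 targets of the glucocorticoid receptor, measured here without dexamethasone, 8 rose and 5 fell. Angptl4 led them, followed by Errfi1, an inhibitor of the EGF receptor, at 0.76, the kinase Sgk1 at 0.62, the cell cycle inhibitor Cdkn1a at 0.56, Klf9 at 0.48 and Dusp1 at 0.48. Tat at -0.52 and Fkbp5, a cochaperone of the receptor, at -0.34 fell, and Tsc22d3 at -0.07 and Per1 at 0.19 did not pass. Nr3c1, which encodes the receptor, rose by 0.29.

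The growth hormone axis contained several of the larger changes, in both directions, with 6 of 26 genes higher and 9 lower. Socs2, a feedback inhibitor of growth hormone signaling, read 7.49 and 7.54 in vehicle and 8.62 and 8.44 after GW3965, a rise of 1.01. Bcl6, a repressor that opposes STAT5 in male liver, read 8.90 and 8.94 against 7.37 and 7.48, a change of -1.49 (SE 0.06, adjusted p = 3.9e-12 from limma). Cyp2c12, a cytochrome known as female-predominant in rat liver, rose from 10.49 and 10.29 to 11.26 and 11.17, by 0.83. The male-predominant Cyp2c11 rose by 0.09 and Cyp2c13 stood at 0.00 and did not pass. Igfbp3, a carrier of insulin-like growth factors, stood at -0.64, Igf1 at -0.08 and not passed, Cish, another feedback inhibitor, at 0.45 and the receptor Ghr at 0.32, the latter both higher. On its other probe set Ghr stood at -0.08 and was not called. Among 22 hepatocyte transcription factors 6 rose and 6 fell, with Onecut1 far ahead, Cebpb at 0.46 and Hhex at 0.44. Onecut2 rose on 3 probe sets, by 0.35, 0.31 and 0.22, and stood at -0.42 on another.

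Enzymes for foreign compounds and vitamins changed one by one. Cyp1a1, the cytochrome of the aryl hydrocarbon receptor, read 7.36 and 7.48 in vehicle and 5.38 and 5.51 after GW3965, a fall of at least 1.93 to a level not above background, whereas Cyp1a2 stood at 0.00. Aldh1a1, which makes retinoic acid, rose from 9.76 and 9.67 to 10.96 and 10.92, by 1.23, and the carboxylesterase Ces2c and the cytochrome Cyp3a9 rose by 0.81 and 0.65. Of 16 retinoid genes 6 fell, among them Aldh1a3 at -0.55, the retinoic acid receptor Rarb at -0.54 and Lrat, which stores retinol, at -0.38. In the list of NRF2 targets and glutathione enzymes 20 of 26 did not pass, with Hmox1 at 0.08 and Nqo1 at -0.08.

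Of 16 clock genes tested, 2 rose and 4 fell. Cry2, a repressor of the clock, read 7.99 and 8.07 in vehicle and 7.25 and 7.26 after GW3965 and stood at -0.77, and Usp2, a clock-controlled protease, stood at -0.64. On their other probe sets Cry2 stood at -0.07 and Usp2 at -0.08, and neither was called. Bhlhe40, which represses clock targets, rose by 0.69, and Nr1d2 was higher by 0.41, but not without vehicle array a (adjusted p = 0.15) or GW3965 array a (adjusted p = 0.18). Clock and Cry1, both at -0.21, did not pass without vehicle array b or either GW3965 array (adjusted p from 0.072 to 0.22) or with quantile normalization. Per2 stood at 0.05 on its brightest probe set, not called, and read 8.38 and 8.43 against 7.37 and 7.36 on the other, a change of -1.04. Bmal1 at -0.09, Npas2 at -0.14, Rora at -0.17, Csnk1d at -0.05, Csnk1e at 0.10, Tef at 0.02, Hlf at 0.21, Nfil3 at 0.12 and Per1 at 0.19 did not pass.

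In several lists few members changed by much. Of 27 coagulation and complement factors 12 fell and none rose, by 0.31 or less, with F5 at -0.31 and C5 at -0.26, and the 12 became 5 without GW3965 array b. In the brightest signal bin 11 of 26 coagulation and complement factors fell (42.3%), against 30.1% of all genes there. Of 37 respiratory chain subunits 9 fell and none rose, with values from -0.25 to 0.13, and with quantile normalization 2 fell and 3 rose. The 9 became 5 without GW3965 array a and 2 without array b. All 9 lay in the brightest signal bin, which held 36 of the 37, and their share of it was 25%, below that of all genes in the bin. Of 23 cell cycle genes 5 fell, 1 rose and 17 did not pass, with Cdk1 at -0.08 and Pcna at -0.02, shares near those over all genes (15.9% lower and 5.9% higher). The 5 that fell became 3 with quantile normalization and 2 without vehicle array b or either GW3965 array.

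**Figure D5:**
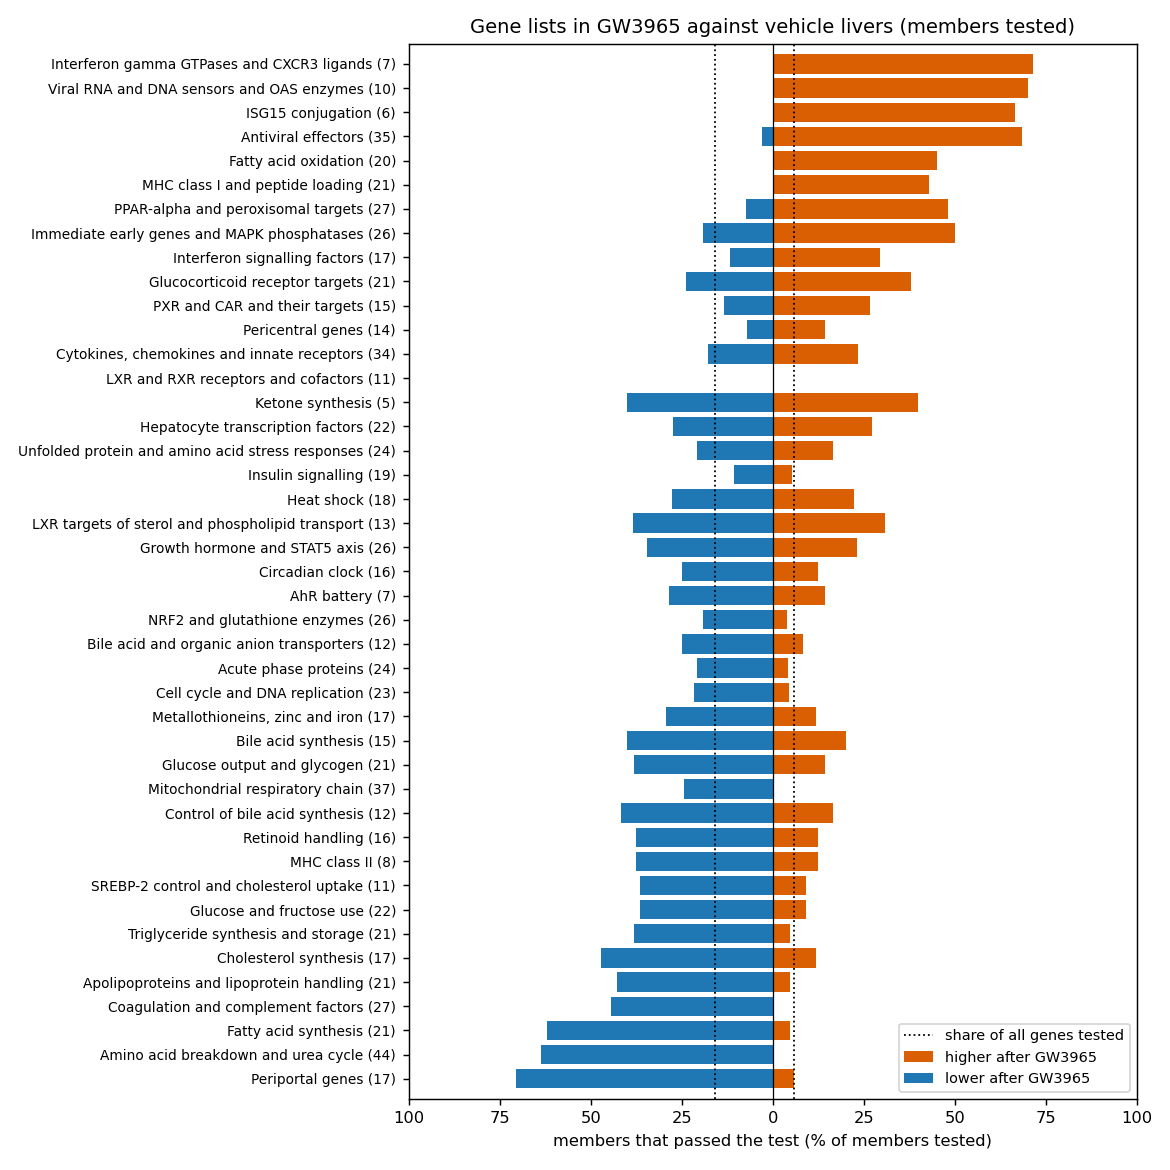
Share of tested members called higher (orange, to the right) and lower (blue, to the left) after GW3965, in percent of members tested, for each list of genes, with the number tested in brackets and dotted lines at the shares over all genes (5.9% higher and 15.9% lower). Of the 5 interferon lists, 4 lie at the top with nearly all calls higher, and the periportal, amino acid and fatty acid synthesis lists at the foot with nearly all calls lower.

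Probe sets of the same gene mostly did not oppose each other. Of 2372 genes with more than 1 kept probe set, 800 had at least 1 called, 174 had all called in the same direction and 15 had calls in opposite directions. The 15 include Abca1, Onecut2, Sc5d, the trafficking GTPase Rab14 and the tropomyosin Tpm3. Of the 128 probe sets changed at least 2-fold, 87 carried 1 symbol, naming 79 genes, and 39 were at or below background in 1 group, so that their fold is a lower bound.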

How the data were processed

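Liver RNA (5 µg total RNA per array) was measured on 8 Affymetrix rat genome arrays. The authors deposited 1 log2 signal per probe set and array, made from perfect match probes re-mapped to UniGene with background subtraction as in MAS5, and how arrays were normalized to each other is not given in the sources used here. Their range, 2.497 to 14.95, was the basis for reading them as log2. Array medians were 5.48 to 5.52. Precision is limited by the number of arrays.

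Of 31099 probe sets, 57 controls were removed, and those whose signal exceeded the array median on at least 2 of 8 arrays were kept. Symbols came from the platform annotation, where 20826 probe sets had 1 symbol, 436 several and 9780 none, and 20758 matched RefSeq by gene ID. A group-means model of the 8 arrays was fitted in limma 3.58.1 (R 4.3.3) with an intensity trend (4 residual and 12.7 prior degrees of freedom), and p-values were adjusted by Benjamini-Hochberg over all kept probe sets. The script was tested on simulated data. Lists are described by counts and medians without a test of their own.

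The members and lists were chosen with earlier results of these data known. Named genes are the 15 largest measured differences in each direction (some of them bounds, with 1 group not above background), all tested members of the LXR, bile acid, fatty acid and cholesterol synthesis, clock and ISG15 lists, and the 6 largest changes of other lists. The 15 were taken among called genes whose vehicle and GW3965 arrays did not overlap. Other named genes, among them well-known members that did not pass and the dimmer probe sets of RT1-Ba and RT1-Bb, were chosen after their values were seen. Alternatives were quantile normalization, centring, other filters, the 4 arrays alone, the letters as a block, other variance priors, leaving out each array, the one-sample t-test of the methods, other probe sets of a gene and motifs on the sense strand.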

Additional observations from a re-analysis of the deposited data

How the results depend on the processing

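The number of changed probe sets depended on the arrays and the test more than the direction of single genes did. Without 1 array, the count of 3325 fell to between 1804 and 2705, that of higher probe sets to between 574 and 858 and that of lower probe sets to between 1230 and 1960, and the probe sets at least 2-fold higher numbered 68 to 75 and at least 2-fold lower 57 to 65. The lower probe sets numbered 1505 with quantile normalization and 1447 without the intensity trend. With a filter on mean signal over the 8 arrays, 65 probe sets were at least 2-fold higher and 39 at least 2-fold lower. The main fit had 71 and 57, so the number of large falls depended on the filter. By the one-sample t-test of the methods, 19 probe sets passed after adjustment, 8 higher and 11 lower, with 0 at least 2-fold higher and 1 at least 2-fold lower. At its unadjusted threshold 2818 passed, and 1434 of these were also called by limma. The cause of these differences was not tested, except that fewer arrays enter the fits that leave one out. The letters a and b showed little sign of pairing the arrays (correlation of the a minus b differences between vehicle and GW3965, 0.083). With the letter as a replicate block in the 8 arrays, 3099 probe sets passed, 904 higher and 2195 lower. In the 4 vehicle and GW3965 arrays alone, 3132 passed without that block and 4058 with it.

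Of 363 named genes followed, none of those called changed direction under another normalization, variance prior or set of arrays or without the filter. Nor did any called gene that a filter on mean signal kept (346 genes kept their call or lack of one and 1 gained it). A change of sign was not counted for genes not called, such as Csnk1d, at -0.05 and, with quantile normalization, at 0.02. On another probe set 4 values of called genes reversed, Abca1 at -0.47 on each of 2 probe sets, Onecut2 at -0.42 and Sc5d at 0.26. A further 33 no longer passed, 10 passed where the brightest did not and 81 kept their call or lack of one. With the gene mean over probe sets, 18 of the 363 no longer passed, and without the intensity trend 52. Counting the ISRE core on the sense strand alone gave 33.3% of interferon promoters, against 1.9% of all promoters and 1.51% of the matched genes tested. Dim genes limit what could be seen, as 432 tested probe sets lay below background in both groups.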
